A study of Mus musculus with 10 samples.

Results

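The transcripts described here encode plasma proteins of blood clotting and of complement, the protein cascade of innate immunity. They are 40 genes among the 14812 entries of the count tables, 21 for coagulation, contact activation and fibrinolysis and 19 for complement. They were picked by symbol, written in the tables in lower case (f2, fga, c3). The rule uses no measured value, but the list was drawn up with earlier results of these data known. The data come from hepatocytes, the main cells of the liver, taken from C57BL/6 male mice 3 months old with chow always available. Under ketamine and xylazine anaesthesia the livers were perfused with collagenase, and the cells were purified on Percoll. The 10 libraries were made at 4 zeitgeber times (ZT, hours in the light-dark cycle, with ZT0 at lights on by convention): 3 each for ZT0 and ZT12, 2 each for ZT6 and ZT18. All groups shared strain, sex, age, diet and procedure, and differed in time. How many mice gave a library is not stated, so the spread between libraries may be technical. P-values of the tests by time measure the spread of levels between libraries. Those of the tests by lobule zone, made within each library, measure how far the zone difference varies from library to library.

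Clotting proceeds through serine proteases that activate one another until thrombin turns fibrinogen into fibrin, and serpins, protein C and plasmin limit or dissolve the clot. Complement is started by the classical, lectin or alternative pathway, all of which cleave C3, and it ends in a pore built from C5b, C6, C7, C8 and C9. Hepatocytes make most of these proteins for the blood. The liver lobule runs from the portal vein, where blood enters, to the central vein, and hepatocytes along this axis differ in their tasks.

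The libraries held 710 to 2860 cells and 1454623 to 7144803 UMIs (distinct tagged molecules), with 1588 to 2662 UMIs in the median cell. Hepatocyte markers were high in all 10 libraries, with Alb at 17706 to 43307 CPM (UMIs per 1000000). The CPM of cell type markers are scaled to library size alone, and all other CPM are given after TMM scaling. Of 8 macrophage markers 5 were at 0 in every library, C1qa, C1qb and C1qc among them, and so were 3 of 8 endothelial markers, Vwf among them. The 8 macrophage markers summed to 0 to 6.11 CPM and the 8 endothelial markers to 3.44 to 17.4 CPM. The cholangiocyte markers summed to 20.4 to 117.8 CPM at ZT0, 5.79 to 20.5 CPM at ZT6 and values between these at ZT12 and ZT18, and the platelet markers to 0.59 to 2.51 CPM. The cholangiocyte sums rest on Sox9 and Spp1, with 565 and 987 UMIs over all cells, against 3, 2 and 3 for Krt7, Krt19 and Epcam. The erythroid markers summed to 72.2 to 107.9 CPM before ZT18 and to 99.0 to 361 CPM at ZT18, ranges that overlap. Among them Alas2 alone was at 67.4 to 106.9 CPM over the 10 libraries. The globins Hbb-bs, Hbb-bt, Hba-a1 and Hba-a2 had medians of 0 to 1.47 CPM and highest values of 29.6 to 142 CPM. The 10x index labels fall into columns 3, 4, 5 and 7. Both ZT18 libraries, and no others, have column 4, so that time and that column cannot be told apart. The replicates C of ZT0 and ZT12 share column 5 and stood apart for several members, as described below. Each main count is therefore also given without those libraries.

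All 40 transcripts were detected, and together they made up 1.53% to 2.75% of a library's UMIs. The most abundant were the fibrinogen chains Fga, Fgb and Fgg and the central complement protein C3, with 87276, 101443, 104823 and 97401 UMIs over all cells. Masp1, a protease of the lectin pathway, had only 114 UMIs in 113 cells. It fell below the mean of 3 CPM needed for testing, so 39 members were tested. Its level of 1.35 to 4.20 CPM rested on 2 to 24 UMIs per library and cannot show a difference at this depth.

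The first comparison asked where along the lobule these transcripts were most abundant. Cells of each library were ordered by 16 landmark genes, none of them a member, and split into 3 equal zones. Most members were higher on the portal side: of 39 tested, 30 were higher in the periportal zone, 3 were higher in the pericentral zone, and 6 did not pass the test. Of all 8894 genes tested, 1154 were called higher periportally and 1256 (14.1%) pericentrally, 27.1% in all (edgeR's quasi-likelihood test, Benjamini-Hochberg adjusted p below 0.05). Among the 2934 genes at or above the level of the lowest tested member, 20.7% were called higher periportally. The median log2 difference, periportal minus pericentral, was 0.52 over the members and -0.0082 over all genes tested. The direction was the same in 10 of 10 libraries for 25 of the 30. The 30 were called on these same libraries, so this count is not separate support.

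**Figure D1:**
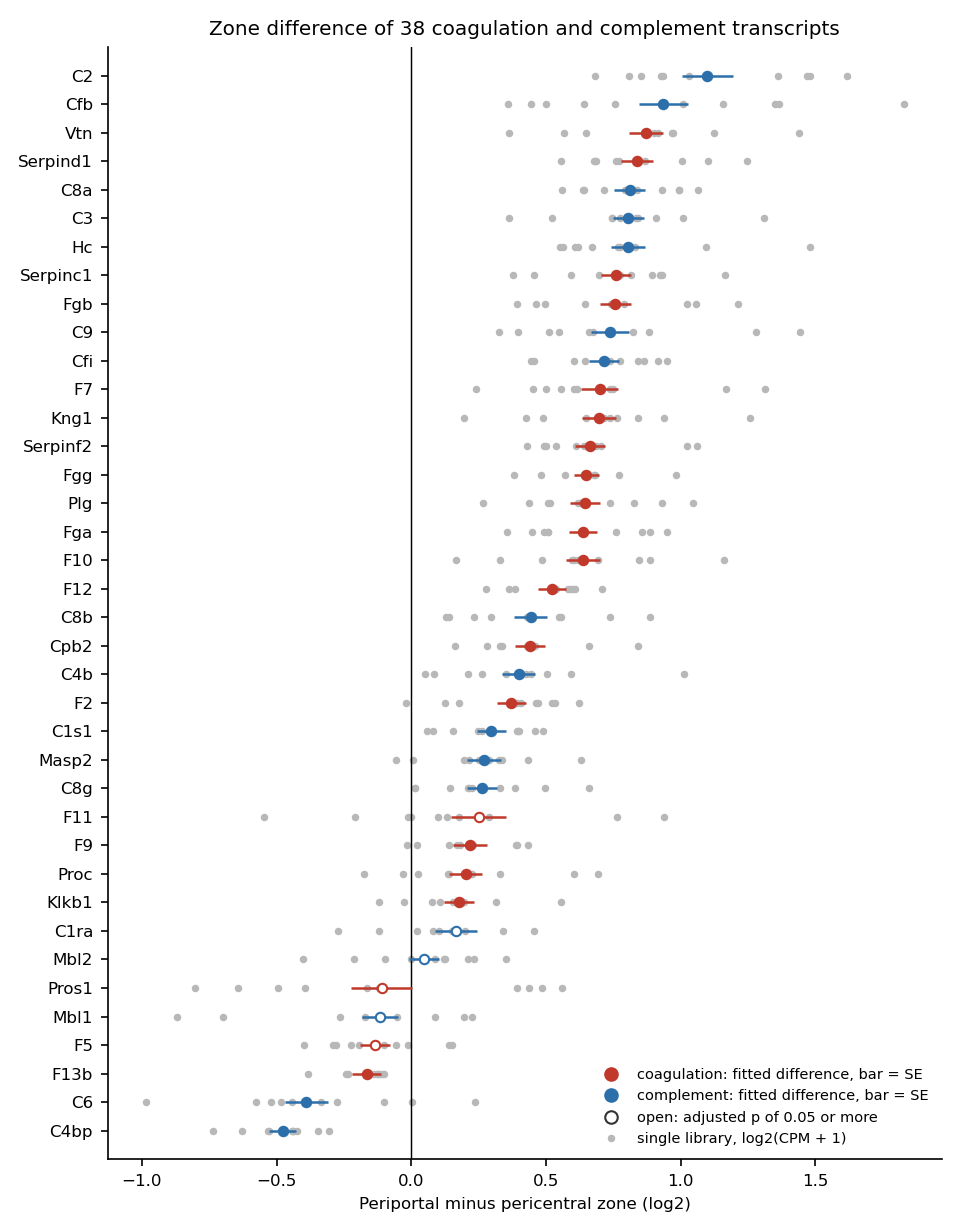
Zone difference of 38 of the 39 tested transcripts on the log2 scale (x axis), ordered by size; coloured points are fitted values with bars of 1 SE, filled where the adjusted p is below 0.05, and grey points are the 10 libraries. Most points lie to the right of 0, up to 1.10 for C2, while C4bp, C6 and F13b are filled points to the left.

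Taken as one sum, the 40 members rose along the axis in every library. The most abundant, Fga, Fgb, Fgg and C3, weigh most in this sum. All 40 made up 1.29% to 2.07% of UMIs pericentrally (median 1.61%), a median of 1.98% in the middle zone and 1.74% to 3.43% periportally (median 2.19%). The periportal share was above the pericentral share in 10 of 10 libraries, although the ranges over libraries overlapped. Mitochondrial transcripts moved the same way, from a median of 15.2% of UMIs pericentrally to 18.6% periportally, and were higher periportally in 10 of 10 libraries. The median cell held more UMIs in the periportal zone in 7 of 10 libraries. The part of either in the zone difference was not tested.

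Among the vitamin K-dependent proteins, 5 of 6 passed the test, all higher periportally. F7, the protease that starts clotting with tissue factor, was at 70.5 to 141.9 CPM pericentrally (median 111.0) and 123.1 to 216.3 CPM periportally (median 186.8). The fitted fold was 1.63 (log2 0.70, SE 0.069, adjusted p = 8.60e-12), and F7 was higher periportally in all 10 libraries. F10, which converts prothrombin to thrombin, had a log2 difference of 0.64 (SE 0.064). F2, prothrombin itself, had 0.37 (SE 0.055). F9, a protease upstream of F10, had 0.22 (SE 0.062) and Proc, the anticoagulant protein C, had 0.20 (SE 0.063). Proc did not pass the test without the ZT0 C library or without the column 5 libraries. Pros1, the cofactor of protein C, had medians of 34.3 CPM pericentrally and 36.0 CPM periportally, and was higher periportally in 4 libraries and lower in 6. Its means lay the other way, at 40.9 and 36.6 CPM. The log2 difference was -0.11 (SE 0.11) and did not pass the test.

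F5, the cofactor of activated F10, and F13b, the carrier subunit of the fibrin cross-linking enzyme, leaned to the other side. F13b was at 132.8 to 193.6 CPM pericentrally (median 159.1) and 122.0 to 161.6 CPM periportally (median 141.6). The ranges overlapped, but F13b was lower periportally in 10 of 10 libraries, with a log2 difference of -0.17 (SE 0.054). Its call was lost in 6 alternatives, among them the fit without the column 5 libraries. F5 had a log2 difference of -0.14 (SE 0.057) and did not pass the test.

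The contact system, which starts clotting on charged surfaces and releases bradykinin, had 3 of 4 members higher periportally. Kng1, the kininogen from which bradykinin is cut, was at 308 to 514 CPM pericentrally (median 463) and 531 to 1188 CPM periportally (median 660.0). Every periportal library was above every pericentral one. The log2 difference of Kng1 was 0.70 (SE 0.063). F12, the protease that starts this branch, had 0.52 (SE 0.053), and Klkb1, prekallikrein, had 0.18 (SE 0.055). The call of Klkb1 was lost without ZT18 B and without the column 5 libraries. F11, the link from this branch to F9, had 0.25 (SE 0.10) and missed the threshold, with an adjusted p of 0.061.

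All 3 fibrinogen chains were higher periportally by a similar factor. Fgb was at 966 to 2060 CPM pericentrally (median 1711) and 1641 to 4383 CPM periportally (median 2703). Its fold was 1.69 (log2 0.76, SE 0.058, adjusted p = 2.21e-15). Fga and Fgg had log2 differences of 0.64 (SE 0.051) and 0.65 (SE 0.047). Each chain was higher periportally in 10 of 10 libraries, and each was lowest in layer 1, the most central of 8 layers, in 10 of 10.

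The inhibitors of clotting showed some of the larger differences. Serpind1, heparin cofactor II, a thrombin inhibitor, was at 144.7 to 262.7 CPM pericentrally (median 182.8) and 233.7 to 445.5 CPM periportally (median 358.8). Its fold was 1.79 (log2 0.84, SE 0.059, adjusted p = 1.36e-16). Serpinc1, antithrombin, was at 359 to 689 CPM pericentrally (median 542) and 667 to 1315 CPM periportally (median 924), a fold of 1.69 (log2 0.76, SE 0.055, adjusted p = 5.81e-16). Both were higher periportally in 10 of 10 libraries, with ranges that overlapped across libraries. The genes of fibrinolysis went the same way, with log2 differences of 0.64 for Plg (plasminogen), 0.66 for Serpinf2 (the plasmin inhibitor antiplasmin) and 0.44 for Cpb2 (a carboxypeptidase that slows fibrin lysis). Vtn, vitronectin, an adhesive protein that also binds the terminal complement complex, was at 273 to 605 CPM pericentrally (median 460.1) and 573 to 1244 CPM periportally (median 811). Its fold was 1.83 (log2 0.87, SE 0.063, adjusted p = 3.86e-16), the largest among the coagulation members.

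The complement members held both the largest portal and the largest central differences. C2, the protease of the classical and lectin C3 convertase, was at 26.4 to 52.4 CPM pericentrally (median 36.5) and 57.2 to 114.7 CPM periportally (median 83.0). Its fold was 2.14 (log2 1.10, SE 0.093, adjusted p = 7.69e-14), and every periportal library was above every pericentral one. Cfb, the matching protease of the alternative pathway, was at 18.3 to 138.0 CPM pericentrally (median 45.8) and 57.7 to 357 CPM periportally (median 72.4). Its fold was 1.91 (log2 0.94, SE 0.090, adjusted p = 4.06e-12), in the same direction in 10 of 10 libraries. C2 and Cfb are neighbours on chromosome 17, 0.087 kb apart in the RefSeq annotation of GRCm38.p6.

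C3, cleaved by all 3 pathways, was at 999 to 2387 CPM pericentrally (median 1473) and 1299 to 3860.0 CPM periportally (median 2903). Its fold was 1.75 (log2 0.81, SE 0.058, adjusted p = 2.86e-16), and layer 8, nearest the portal vein, was its highest layer in 9 of 10 libraries. In the classical pathway C4b (the other part of the convertase) had a log2 difference of 0.40 and C1s1 (the C1 protease that cleaves C4 and C2) had 0.30, while C1ra (the protease that activates C1s) had 0.17 and did not pass. In the lectin pathway 1 of 3 tested genes was called, Masp2, the lectin-associated protease, at 0.27 (SE 0.063). The lectins Mbl1 and Mbl2 had -0.12 (SE 0.068) and 0.047 (SE 0.057). Reads of C4b, C1ra, C1s1 and Kng1 can be shared with similar copies elsewhere in the mouse genome, so these values are uncertain.

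The 6 terminal pathway genes all passed the test, 5 higher periportally and 1 pericentrally. Hc, which encodes C5, was at 152.9 to 255.7 CPM pericentrally (median 221.0) and 226.5 to 457 CPM periportally (median 371), a fold of 1.75 (log2 0.81, SE 0.065, adjusted p = 1.44e-14). C8a was at 171.2 to 351 CPM and 342 to 569 CPM in the same zones, with a fold of 1.75 (log2 0.81, SE 0.058, adjusted p = 2.37e-16). Its partner chains in C8 differed less, at 0.44 (SE 0.060) for C8b and 0.26 (SE 0.056) for C8g on the log2 scale. C9, which forms the ring of the pore, was at 275 to 763 CPM pericentrally (median 381) and 509 to 995 CPM periportally (median 679). Its fold was 1.67 (log2 0.74, SE 0.070, adjusted p = 3.35e-12).

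C6, which joins C5b in the first step of the pore, had the opposite direction. It was at 71.4 to 198.9 CPM pericentrally (median 122.7) and 56.5 to 139.9 CPM periportally (median 98.1). The log2 difference was -0.39 (SE 0.080), C6 was lower periportally in 8 of 10 libraries, and its call held in all 23 alternatives. By layer, C6 was highest in layer 1 in 9 of 10 libraries, at 151.0 ± 52.1 CPM (SD, n = 10), and fell to 98.3 CPM by layer 3.

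Of the regulators, Cfi (the protease that inactivates C3b and C4b) was at 201.7 to 301.5 CPM pericentrally (median 271) and 341 to 545 CPM periportally (median 403). The ranges did not overlap, with a fold of 1.64 (log2 0.71, SE 0.056, adjusted p = 6.33e-15). C4bp, which guides Cfi to C4b, went the other way, at 489 to 864 CPM pericentrally (median 590.0) and 367 to 599 CPM periportally (median 427). It was lower periportally in 10 of 10 libraries, with a log2 difference of -0.48 (SE 0.050), the largest pericentral difference among the members. C4bp was highest in layer 1, at 684 ± 143.0 CPM, and lowest in layer 8, at 427 ± 76.5 CPM (SD, n = 10).

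The promoters of the fibrinogen genes and of the 3 genes called higher pericentrally are shown because these sets were called in opposite directions between the outer zones. For F13b the difference was small, its call was lost in 6 alternatives, and its mean level was highest in layer 4. The 250 bases before the start in the RefSeq promoter table (GRCm38.p6) were searched, and they are written 5′ to 3′ on the gene's strand. For 12 of 31 members, C4bp, C6 and F13b among them, a window reached inside the gene's annotated span. The windows of C4bp, C6 and F13b did so by 39, 143 and 160 bases, which are not printed, while those of the fibrinogen genes lay wholly outside. Capitals mark matches on either strand to GTTAAT (an HNF1 half-site; ATTAAC on the other strand) or TTCNNNGAA (a STAT-type site). The regions are chr3:83025903-83026152 (plus strand) for Fga, chr3:83049864-83050113 (minus) for Fgb and chr3:83007474-83007723 (plus) for Fgg. They are chr1:130661658-130661868 (minus) for C4bp, chr15:4726960-4727066 (plus) for C6 and chr1:139501457-139501546 (plus) for F13b.
Fga: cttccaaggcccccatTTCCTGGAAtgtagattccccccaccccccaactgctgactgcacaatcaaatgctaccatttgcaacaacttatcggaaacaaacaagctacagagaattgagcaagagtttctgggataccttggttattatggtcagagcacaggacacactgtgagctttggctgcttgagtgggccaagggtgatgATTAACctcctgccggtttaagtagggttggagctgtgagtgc
Fgb: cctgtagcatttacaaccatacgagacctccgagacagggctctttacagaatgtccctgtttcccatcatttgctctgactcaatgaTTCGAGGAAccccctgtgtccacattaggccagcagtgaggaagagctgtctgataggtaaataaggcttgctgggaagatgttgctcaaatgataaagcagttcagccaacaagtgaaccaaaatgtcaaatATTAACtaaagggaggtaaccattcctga
Fgg: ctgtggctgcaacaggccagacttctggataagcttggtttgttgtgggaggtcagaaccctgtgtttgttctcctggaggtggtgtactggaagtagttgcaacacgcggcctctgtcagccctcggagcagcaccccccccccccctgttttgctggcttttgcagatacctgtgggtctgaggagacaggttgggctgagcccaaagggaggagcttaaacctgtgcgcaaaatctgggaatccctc
C4bp: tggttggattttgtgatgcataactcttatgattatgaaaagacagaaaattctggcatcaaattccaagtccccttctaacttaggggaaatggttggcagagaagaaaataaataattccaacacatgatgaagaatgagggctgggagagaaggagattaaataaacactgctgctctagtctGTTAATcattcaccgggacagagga
C6: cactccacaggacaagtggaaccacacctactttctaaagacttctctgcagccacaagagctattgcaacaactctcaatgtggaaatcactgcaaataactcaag
F13b: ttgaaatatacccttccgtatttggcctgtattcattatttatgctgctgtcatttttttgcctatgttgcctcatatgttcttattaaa

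A GTTAAT match stood in the promoters of Fga, Fgb, C4bp and F13b, and none in those of Fgg and C6, so both sets held promoters with and without one. The match of F13b lies in the bases inside the gene. Of 31 members with a promoter in the table, 9 had such a match (C1ra, C4bp, C8a, C8b, F13b, Fga, Fgb, Hc and Vtn), against 6.43% of all 32851 promoters. TTCNNNGAA was found in 6 of 31 (C8a, F9, Fga, Fgb, Masp2 and Pros1), against 7.02% of all. The GTTAAT match of Hc and the TTCNNNGAA matches of F9 and Masp2 also lie inside the annotated span of their gene. CACGTG (an E-box) and TTATGTAA (a D-box of the PAR bZIP factors) were found in 0 of 31, against 6.02% and 0.819%, and TTGCGCAA (a C/EBP site) in 0 of 31, against 0.164%. A match is only a run of letters in this window. Proc, Kng1, Plg, C2, C4b, Masp1, Cfb and Cfi were among those not in the table.

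Fgg, Fga and Fgb lie side by side on chromosome 3, with gaps of 11.1 and 8.62 kb. Other neighbouring members had zone differences of the same sign. As 33 of the 39 tested members had a positive difference, a shared sign says little about position. F7 and F10, adjacent on chromosome 8, had 0.70 and 0.64. F11 and Klkb1, 4.63 kb apart, had 0.25 and 0.18, with F11 not called. C8b and C8a on chromosome 4, 11.1 kb apart, had 0.44 and 0.81.

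Over 8 layers, 22 of the 39 tested members had their highest mean level in layer 8, 3 in layer 7 and 7 in layer 6. Layer 1 was highest for Pros1, F5, C6 and C4bp, layer 2 for Mbl1, layer 4 for F13b and layer 5 for C1s1. These are peaks of means: for Pros1, layer 1 was highest in only 3 of 10 libraries. No such count is given over all genes. The span from the lowest to the highest layer, relative to each library's mean, ran from 1.16-fold for F13b to 2.78-fold for C2. C9 had the steepest step at the central end: it was at 283 ± 160.8 CPM in layer 1 and 485 ± 171.4 CPM in layer 2 (SD, n = 10), and layer 1 was lowest in 10 of 10 libraries. From layer 4 to layer 8 C9 moved only from 669 to 727 CPM.

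**Figure D2:**
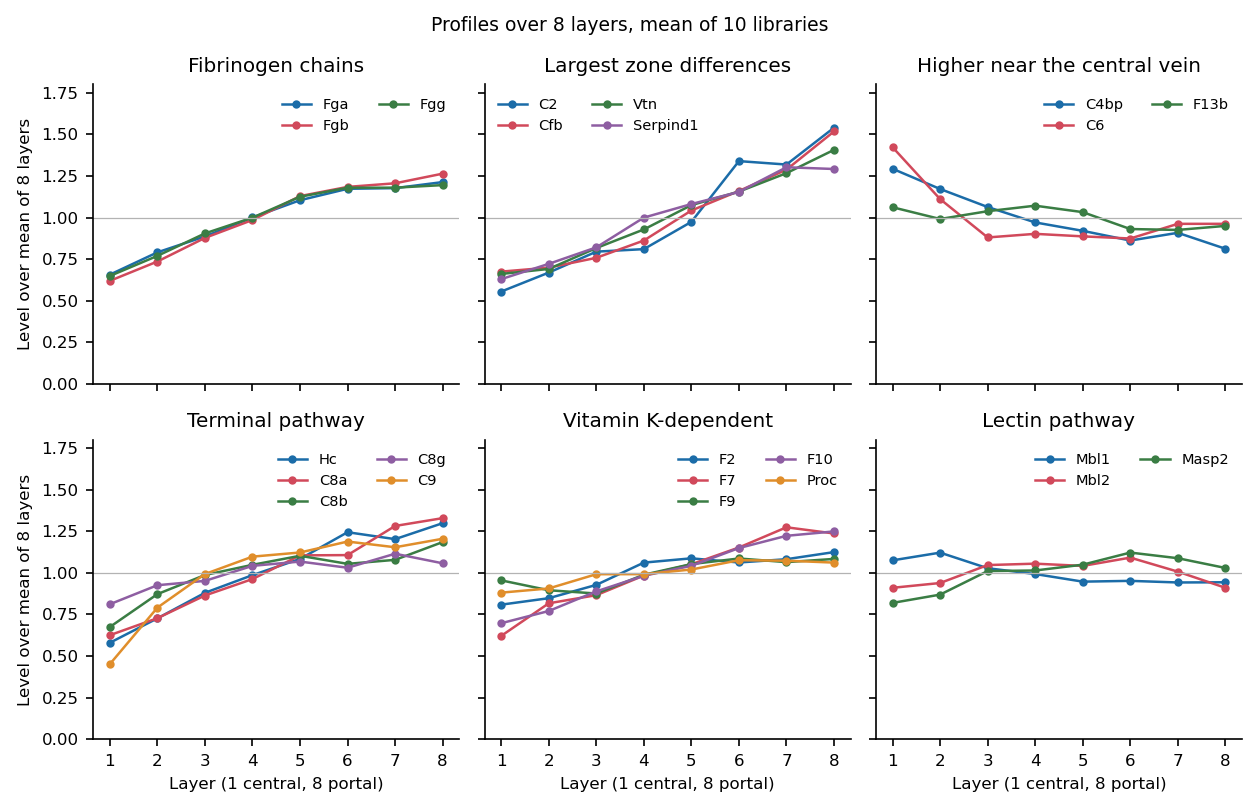
Level in each of 8 layers from the central (1) to the portal (8) end, divided by the mean of the 8 layers and averaged over 10 libraries, in panels by role. The fibrinogen chains rise together, C9 is lowest in layer 1 at 0.45 of its mean, and C6 and C4bp are highest there, at 1.42 and 1.29.

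A second test asked whether any member was highest or lowest in the middle zone. Of 39 members 2 passed, against 0.663% of all genes, and both were above the mean of the outer zones. At an unadjusted p below 0.05 there were 19, or 48.7% of members against 8.15% of all genes. The difference was positive for 32 of the 39 members and for 4634 of all 8894 genes. C9 had a log2 difference of 0.28 (SE 0.060, adjusted p = 0.0087) and Fgg had 0.16 (SE 0.040, adjusted p = 0.046). In neither was the middle zone usually the highest of the 3, which held in 3 of 10 libraries for C9 and in 1 of 10 for Fgg. The Fgg call was lost on leaving out any 1 of 9 libraries. With cells of at least 3000 UMIs only, neither was called.

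The size of the zone difference varied between libraries. Of the 30 members called higher periportally, 23 had their largest difference in ZT0 C and 13 their smallest in ZT0 A. The median difference of these 30 was 1.03 in ZT0 C, 0.39 in ZT0 A and 0.44 to 0.72 in the other libraries. The cell order was also firmest in ZT0 C, where 2 scores, each from alternate landmarks, had a correlation across cells of 0.85, against 0.68 to 0.82 elsewhere. The part of this in the difference was not tested. Without both column 5 libraries 30 members were called, 28 of them periportal, and Proc, Klkb1 and F13b were lost. Without both ZT18 libraries 31 were called, 28 of them periportal. Scaling to library size alone moved the median difference of all genes to -0.11 and the share of calls that were periportal from 47.9% to 27.4%. With it 27 members were called higher periportally and 5 pericentrally, F5 and Mbl1 being added.

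The next question was whether these transcripts follow the time of day. In whole libraries 0 of 39 members had a 24-h rhythm by edgeR, against 5.14% of all 8908 genes tested. At an unadjusted p below 0.05 there were 6 (Fgb, Vtn, C1s1, C6, C8a and C9), or 15.4% of members against 20.4% of all genes. DESeq2 called 4 (Fgb, Vtn, C1s1 and C9) and 792 of all 8908 genes, and limma-voom called 0 members. With the replicate letter as a block edgeR called Vtn and C6, and 749 of all genes in place of 458. Without the column 5 libraries, or without those of ZT18, edgeR called 0. The median amplitude (log2 distance from mean to peak) was 0.22 over the members and 0.25 over all genes.

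C1s1 had the lowest adjusted p, 0.087. Its ZT0 libraries held 260.8, 273 and 272 CPM and those of ZT6 228.7 and 180.1 CPM. The ZT12 libraries held 208.9, 241.6 and 203.7 CPM and those of ZT18 375 and 329 CPM. Both ZT18 libraries lay above the other 8. The fitted amplitude was 0.42 with a peak at ZT19.4. Vtn stood at 718, 827 and 817 CPM in the ZT0 libraries and at 665 and 885 CPM in those of ZT6. It stood at 450.1, 693 and 557 CPM in the ZT12 libraries and at 431 and 487 CPM in those of ZT18. The ZT0 and ZT6 libraries were mostly above those of ZT12 and ZT18, with overlap between ZT6 and ZT12. Its amplitude was 0.45 with a peak at ZT3.9 (adjusted p = 0.131).

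**Figure D3:**
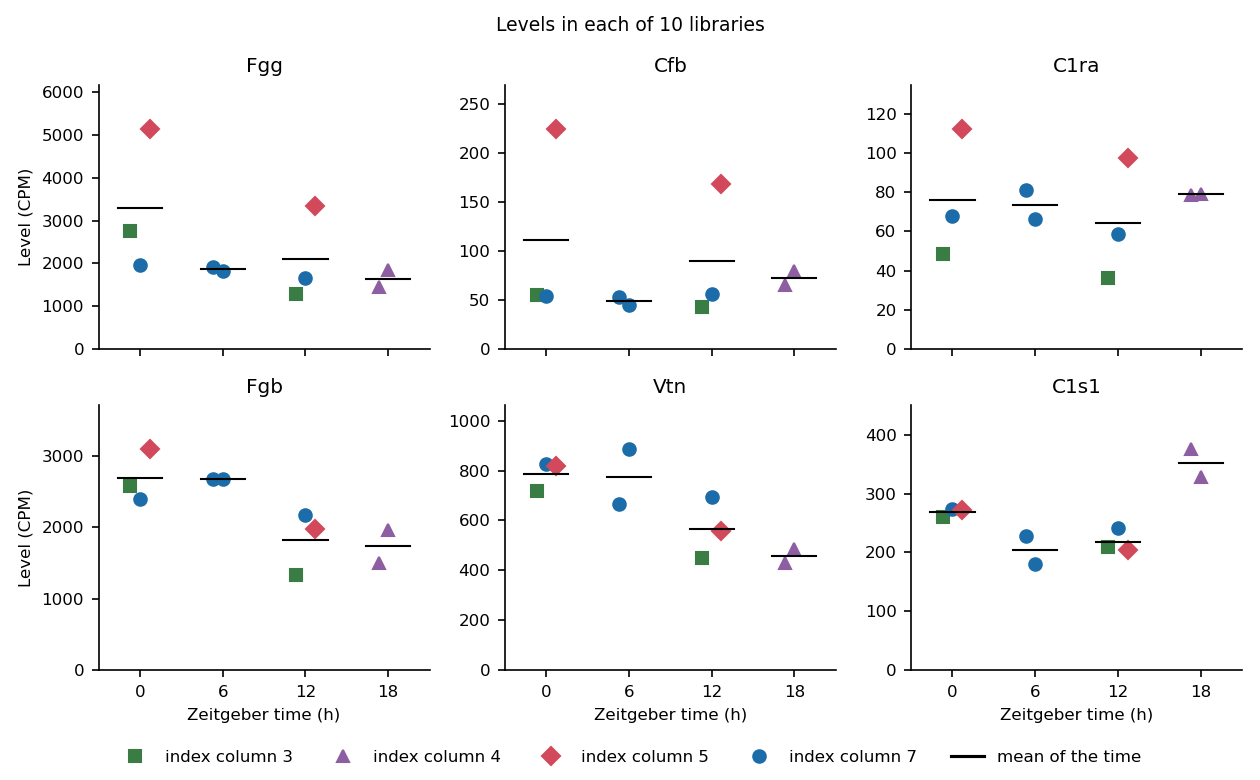
CPM of 6 members in each of 10 libraries by zeitgeber time (h), with symbols for the column of the 10x index label and lines for the mean of each time. For Fgg, Cfb and C1ra the column 5 libraries (diamonds) lie above the others of their time, and for C1s1 both ZT18 libraries lie above the rest.

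Between ZT12 and ZT0, with 3 libraries each, 0 of 39 members passed the test by edgeR, against 3.44% of all genes. DESeq2 and limma-voom also called 0, and the fit with the letter as a block 0 (10 at an unadjusted p below 0.05), although that fit called 504 of all genes in place of 306. At an unadjusted p below 0.05 there were 4, all lower at ZT12 (Mbl1, C8g, Serpinc1 and Fgb), or 10.3% of members against 15.5% of all genes. Serpinc1 was at 827, 841 and 925 CPM at ZT0 and at 529, 646 and 703 CPM at ZT12, groups that did not overlap. Its log2 difference was -0.46 (SE 0.20, adjusted p = 0.28). The groups did not overlap for 7 of 39 members, against 17.0% of all genes in either direction, so this count is near the background. All 7 were lower at ZT12, and no share by direction is given for all genes. In same-letter pairs, which share an index column, 20 of 39 members were lower at ZT12 in all 3, against 20.6% of all genes, and 2 were higher in all 3, against 21.3%. The median difference was -0.18 over the members and -0.00075 over all genes. With library size alone these medians were -0.045 and 0.13. Without the column 5 libraries edgeR called 0 members in this comparison. The median difference was -0.33 in pair A, -0.091 in pair B and -0.17 in pair C, and pair A had the lowest value for 23 of 39 members. ZT12 A had the fewest cells, 710, and 24.3% mitochondrial UMIs, against 12.9% to 18.1% in the other libraries of ZT0 and ZT12. Hepatocyte markers, scaled to library size alone, summed to 35345 to 59099.5 CPM at ZT12 and 52147 to 64495 CPM at ZT0. The part of these was not tested. Without ZT12 A, 0 members were called and 0 had an unadjusted p below 0.05.

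Between ZT18 and ZT6, with 2 libraries each, 0 of 39 members passed by edgeR, against 3.79% of all genes. DESeq2 called 1 (C1s1) and limma-voom 0. At an unadjusted p below 0.05 there were 8, or 20.5% of members against 19.6% of all genes, so this share too is near the background. They were, among others, C1s1, C6, C8a and C9, with higher values at ZT18, and Proc, Serpinf2 and Vtn, with lower ones. C6 had the largest value: it was at 64.1 and 78.4 CPM at ZT6 and at 131.7 and 136.4 CPM at ZT18. The log2 difference was 0.92 (SE 0.35, adjusted p = 0.162). C8a was at 265 and 296 CPM against 450.1 and 459.8, a difference of 0.70. In the other direction Serpinf2 went from 672 and 558 CPM at ZT6 to 400.3 and 362 at ZT18, a difference of -0.69. The groups did not overlap for 26 of 39 members, against 63.1% of all genes, so this count is near the background. With the letter as a block 3 were called, C1s1 and C6 among them, and 730 of all genes in place of 338. ZT18 libraries also differed from those of ZT6 in index column and in erythroid transcripts, and mitochondrial transcripts made up 21.5% and 19.3% of UMIs against 15.90% and 15.96%. The part of these was not tested.

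**Figure D4:**
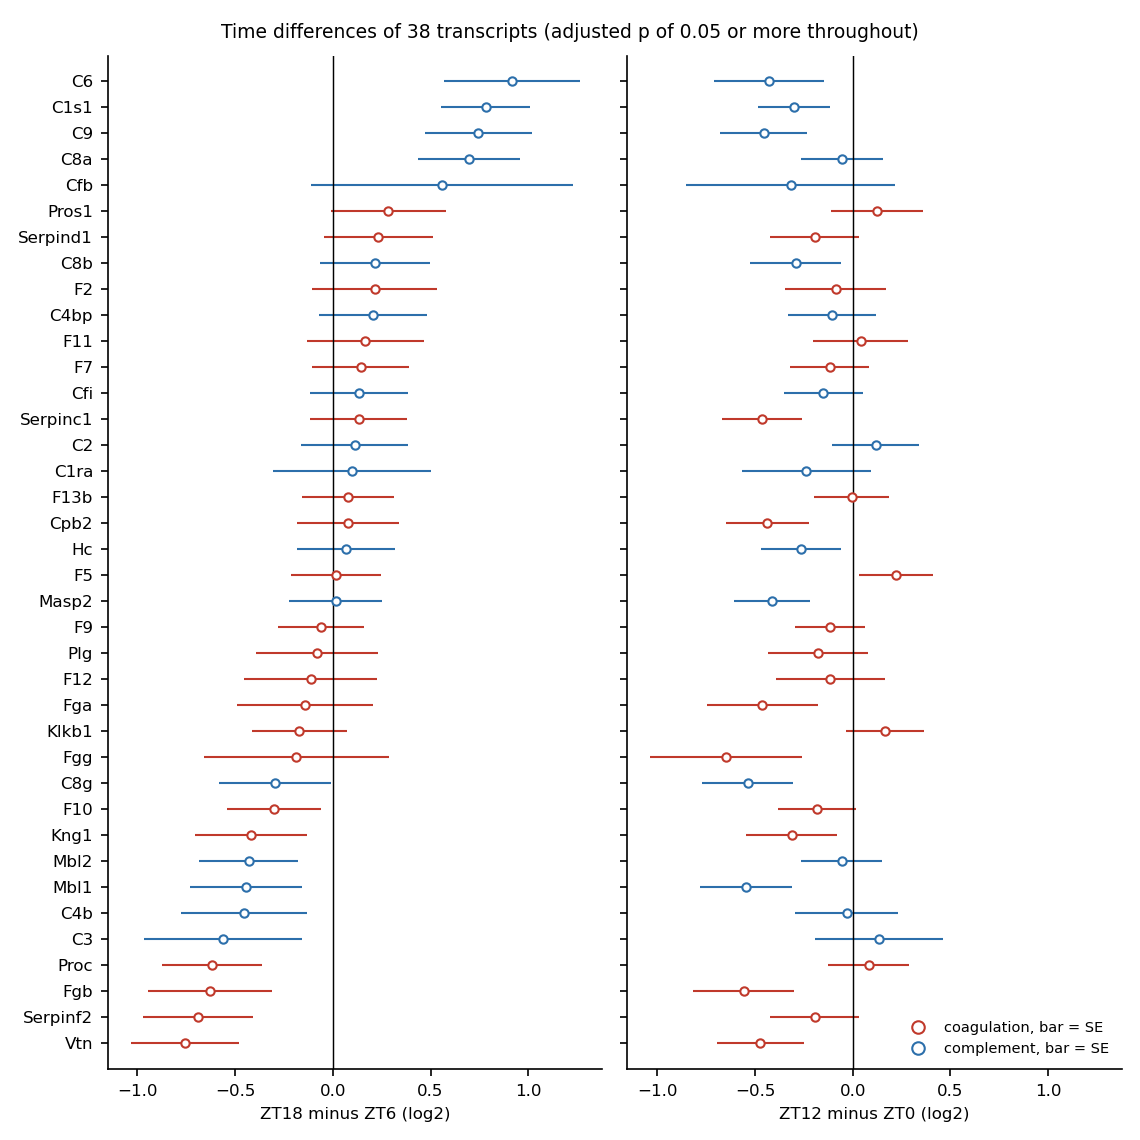
Log2 differences between ZT18 and ZT6 (left) and between ZT12 and ZT0 (right) for 38 of the 39 tested members, with bars of 1 SE, in the order of the left panel. On the left C6 is at the top and Vtn, at -0.76, at the bottom, and on the right 31 of 38 points lie below 0; the adjusted p is 0.05 or more for every point.

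The last test asked whether the zone difference followed the time of day, and 0 of 39 members passed by edgeR, against 0.0450% of all genes. At an unadjusted p below 0.05 there were 2 with edgeR, Mbl1 and C6, 2 with limma-voom and 0 with DESeq2, against 6.04% of all genes with edgeR, and both other tools called 0 after adjustment. The amplitudes of the zone difference ran from 0.016 for C8a to 0.28 for Pros1. C3 was higher periportally by 0.36 to 1.31 in every library, at all 4 times.

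The column 5 libraries, ZT0 C and ZT12 C, stood apart from the others of their time. Of 39 members, 14 were highest of their time in both (35.9%), against 15.2% of all genes, and 3, F9 and Masp2 among them, were lowest in both (7.69%), against 14.7%. Cfb was at 224.6 and 168.5 CPM in ZT0 C and ZT12 C and at 43.1 to 79.3 CPM in the other 8. Fgg was at 5142 and 3340 CPM against 1290.2 to 2751 CPM, and C1ra at 112.3 and 97.5 against 36.4 to 80.9 CPM. For these genes both libraries lay above all 8 others. The chains of fibrinogen were also in another proportion: Fgg over Fgb was 1.66 and 1.69 in ZT0 C and ZT12 C and 0.68 to 1.07 elsewhere. This was seen in the data, and no test was made.

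The other genes of these pathways, from lists of inhibitors, factors, cofactors and regulators, were read in the same fits. Of 7 further coagulation genes that could be tested, 3 were higher periportally, and of 8 further complement genes 5 were higher periportally and 2 pericentrally. Cpn2, a subunit of the carboxypeptidase that inactivates anaphylatoxins, had a log2 zone difference of 0.57 (SE 0.059). Of 7 genes of the vitamin K cycle, which serves the carboxylation of F2, F7, F9 and F10, only Nqo1, a quinone reductase, was called, at -0.90 (SE 0.27). It had only 2.37 to 8.08 CPM. Of 7 tested genes of secretion 3 were higher periportally and 1 pericentrally. Of 14 regulators of hepatocyte transcription or its cytokine input 1 was higher in each direction, the pericentral one being Cebpb at -0.73 (SE 0.061).

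By time, 0 of 7 coagulation genes, 0 of 8 complement genes and 0 of 7 vitamin K cycle genes of these lists had a rhythm by edgeR. Of all genes tested 5.14% had one. At an unadjusted p below 0.05 there were 1, 0 and 1, against 20.4% of all genes. Among the regulators 4 of 14 had a rhythm: Dbp, with an amplitude of 3.24, Nr1d1 (3.37), Tef (1.39) and Hlf, all clock-controlled or clock transcription factors. Mcfd2, part of the receptor that carries F5 and F8 out of the endoplasmic reticulum, was the 1 of 7 secretion genes with a rhythm. It ranged from 87.1 to 229.7 CPM, with an amplitude of 0.64, a peak at ZT19.7 and an adjusted p of 0.0196. Its cargo F5 was at 134.0 to 208.9 CPM with an amplitude of 0.11 (adjusted p = 0.72).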

How the data were processed

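Hepatocyte libraries were profiled at 4 times of day with 10x Chromium 3' chemistry, version 2, per the labels' protocols. The authors deposited whole-number UMI counts (distinct tagged molecules) per gene and cell. Cell Ranger and the builds mm10 and hg19 are named in the submitters' processing notes, without versions or roles. Cell filters, doublet removal and the treatment of reads shared by gene copies are not given in the sources used here. All 18378 deposited cells were kept. The values of 1 member are not reported here, though it is in the counts. Members and gene lists were chosen with earlier results of these data known.

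Counts were summed per library, or per library and zone, and tested with edgeR 4.0.16 (R 4.3.3; quasi-likelihood F-test, TMM, a filter at a mean of 3 CPM). CPM is UMIs per 1000000 after TMM, except for cell type markers, which were scaled to library size alone. P-values were adjusted by Benjamini-Hochberg over all genes tested, with a threshold of 0.05. The rhythm test had 2 degrees of freedom, for the cosine and sine terms of 24 h. The other fits by time had 1 mean per time and pooled the spread of all 10 libraries. SEs were derived as log2 difference over root F.

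Within every library, cells were ranked on a score, 8 periportal landmarks (mean z-score) minus 8 pericentral ones, and split into 3 zones of equal cell number, or 8 layers for description. The zone fits held each library as its own block. No member is a landmark, and landmarks were left out of counts over all genes. Single-library zone differences used log2(CPM + 1). Full statistics were given for at most 12 called members and 4 called genes of the other lists per comparison, those with the largest change.

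The letters A, B and C of the titles were checked for pairing. Deviations from the group means correlated between ZT0 and ZT12 at 0.24, 0.43 and 0.49 for A, B and C, whose index label columns also match. ZT6 and ZT18 gave 0.033. DESeq2 1.42.0, limma-voom (limma 3.58.1), other scalings, filters, cell subsets, zone definitions and left-out libraries were alternatives. The scripts were tested on counts drawn with known changes.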

Additional observations from a re-analysis of the deposited data

Results flagged for a closer look

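The zone difference of Pros1, the cofactor of activated protein C, is given here because its direction was opposite at 2 times. Pros1 was picked for these signs, so they are not separate support, and no share of all genes with such signs is given. It was higher periportally in both ZT18 libraries, at 0.49 and 0.44 (log2), with a mean of 0.46. It was lower periportally in all 3 ZT12 libraries, at -0.80, -0.39 and -0.49. Of the 3 ZT0 libraries 1 was positive, and of the 2 ZT6 libraries 1 was. Each library held 65 to 242 Pros1 UMIs over all its cells, and these differences use only those of the outer zones. The edgeR test of a 24-h course of the zone difference gave an adjusted p of 0.909 (Benjamini-Hochberg over 8894 genes). The difference between ZT18 and ZT12 alone was not tested.

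Mbl2, a mannose-binding lectin, is given for the same reason and with the same limit. Its zone difference was positive in both ZT6 libraries (0.12 and 0.23, mean 0.18) and in both ZT18 libraries (0.09 and 0.35). It was negative in the 3 ZT12 libraries, at -0.0023, -0.096 and -0.40, the first of them near 0. Its 24-h course gave an adjusted p of 0.95 (edgeR). The difference between single times was not tested.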

How the results depend on the processing

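For the zone comparison 28 of 33 calls held in all 23 alternatives, and no call turned its direction. Counts ran from 28 (cells of at least 3000 UMIs) to 34, and from 32 to 34 on leaving out 1 library. The calls lost were of F9, Proc, F13b, Klkb1 and Masp2. Among values not called, Mbl2 periportal minus pericentral turned to -0.052 with library size alone and to -0.066 with cells of at least 3000 UMIs, and Pros1 periportal minus pericentral to 0.023 without the column 5 libraries, a setting chosen after seeing the data. For the middle zone, 4 members were called with no filter, with DESeq2, with limma-voom and without the column 5 libraries, 5 with zones from 5 equal parts of the cell order, 0 with cells of at least 3000 UMIs, and 1 without both ZT18 libraries or with odd-numbered or even-numbered landmarks; leaving out 1 library gave 1 to 4. For the 24-h rhythm, DESeq2 called 4, the fit with the letter as a replicate block 2, and leaving out 1 library 0 to 1 (C6 without ZT12 C). Between ZT18 and ZT6, DESeq2 called 1 and the replicate block 3. The replicate block changed no other member count. The other alternatives called 0 members by time or zone by time. The causes were not tested. The time tests rest on 2 or 3 libraries a group, and their median SE was 0.23 for ZT12 minus ZT0 and 0.28 for ZT18 minus ZT6.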
